A study of Mus musculus with 3 samples.

Results

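Across 2 days of Gata6 overexpression in mouse embryonic stem (ES) cells, 92 genes were lower on day 1 than on day 0 and lower again on day 2. They were chosen by their signals: day 1 at most 50% of day 0, day 2 at most 50% of day 1, and a day 0 signal of 200 or more. The 92 come from 18193 genes with a probe set of their own, of which 8548 had a day 0 signal of 200 or more; 1 further gene that met these conditions was left out. Gata6, a DNA-binding protein of the GATA family, specifies primitive endoderm, the extraembryonic layer beside the pluripotent epiblast. The ES cells had been altered genetically so that its overexpression responds to dex, and 1 array each was hybridised for the control (day 0), day 1 and day 2. Dex is read here as dexamethasone, a synthetic glucocorticoid. Effects of dex, of Gata6 and of time in culture cannot be told apart on these arrays. The sources used here do not give its dose, the cell line, the promoter of the transgene, or whether the control cells carried the modification. Because both steps chose the genes, their values are a description without a test, and with 1 array a day they carry no SD between replicates. In such bulk RNA, fewer cells of a type and less RNA per cell cannot be told apart.

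ES cells hold their identity through a network of transcription factors around Oct4 (Pou5f1), Sox2 and Nanog, which activate one another and many genes specific to the pluripotent state. FGF4 made by the same cells acts through Ras and the kinase ERK. ERK switches on its own inhibitors, such as Dusp6, Spred and Il17rd, and the Ets factors Etv4 and Etv5, so the level of these genes is commonly read as a measure of pathway activity. Gata6 and this network oppose each other in the early embryo, where a cell becomes either epiblast or primitive endoderm.

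Signals are linear MAS5 intensities, and values under 54, the floor, were treated as 54. The 3 arrays had median signals of 84.5, 82.1 and 86.7 and nearly equal trimmed means (497, 498 and 498), and the only measure of error was how far 2 probe sets of a gene differ. On the log2 scale, 1 step had an SD of 0.45 (day 1 over day 0) and 0.42 (day 2 over day 1) where the dimmer probe set had a mean signal from 54 to 200, 0.30 and 0.31 from 200 to 1000, 0.19 and 0.19 from 1000 to 5000, and 0.14 and 0.12 above that. This SD leaves out the spread between samples. Gata6 itself read 109.6, 5573 and 6071 on days 0, 1 and 2. All 8 ES cell markers were above the floor on day 0, between 4050 and 40750, and on day 2 their summed signal was 47571 against 125521 on day 0. Dppa5a, 1 of the 8, read 40750.4, 37049 and 36743, and the other 7 sum to 84771, 20187 and 10827 on days 0, 1 and 2. By contrast, the 5 primitive endoderm markers lay between 5.90 and 71.9 on day 0 and between 1960 and 24469 on day 2. Of 12 fibroblast markers, which would show feeder cells, 8 were at the floor on day 0, Col1a1, Col3a1, Dcn, Lum and Postn were at the floor on all 3 days, and the summed signal was 1094, 559 and 671.

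The median of the 92 genes stood at 1247 in the control, 364 after 1 day and 129 after 2 days. The lowest and highest signals were 234 and 22905 on day 0, 112 and 9141 on day 1, and 12 and 4323 on day 2. The median first step, day 1 over day 0, was -1.47 on the log2 scale and the median second step, day 2 over day 1, was -1.31; over all 8548 genes these medians were -0.06 and -0.08. No gene reached the floor on day 1, and 16 did on day 2, for which the fold and the second step are lower bounds and have no rank. With these 16 at their bound, day 2 stood between 4.32-fold and 31.6-fold below day 0, with a median of 7.58-fold, and 29 genes were at least 10-fold lower. A further limit is the level of 71 olfactory and vomeronasal receptor genes, which are silent in most tissues: their 95th percentile was 72.3, and 26 of the 92 genes were under it on day 2.

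As background to these counts, 635 of the 8548 genes (7.43%) were at least 2-fold lower on day 1 than on day 0, 325 (3.8%) were at least 2-fold lower on day 2 than on day 1, and 92 (1.08%) met both. With a floor of 146.5 the last count was 50, and with a pseudocount of 54 in place of the floor it was 53. The rule used all of these contrasts, and both steps share the day 1 array. The 92 make up 14.5% of the genes lower at the first step and 28.3% of those lower at the second. Of the 543 genes that were lower on day 1 only, 42 were at least 2-fold higher again on day 2, and the median second step was -0.05. Of these 543, 37 were at the floor on day 1 and 56 on day 2. Their median day 0 signal was 546, against 1247 in the 92. A gene less than 2-fold above the floor on day 1 could not be 2-fold lower again. This limit also applies to the gene lists, where genes are counted as lower at the first step only. The count of members on each list is to be set beside the 1.08% over all 8548 genes. The 233 genes lower at the second step only had a median first step of -0.06.

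**Figure D1:**
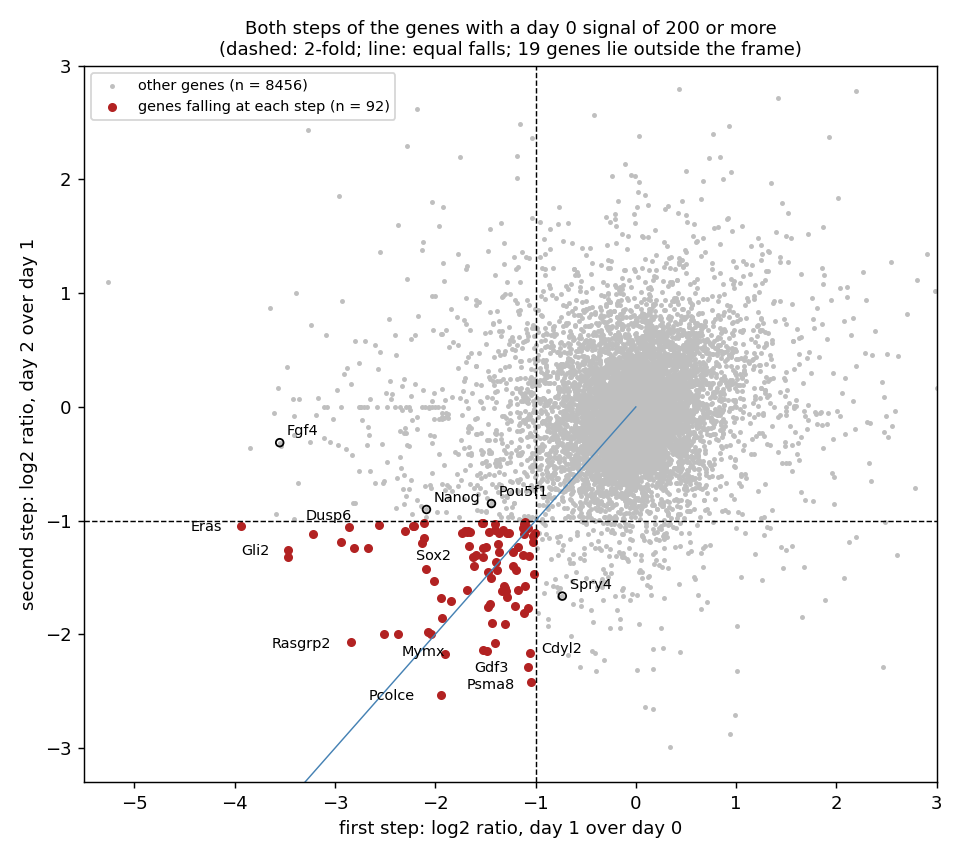
Each point is 1 of 8548 genes with a day 0 signal of 200 or more, with the log2 ratio of day 1 over day 0 on the x axis and of day 2 over day 1 on the y axis; dashed lines mark 2-fold and the solid line equal falls, and 19 genes lie outside the frame. The 92 genes in red fill the lower left corner, Eras has the widest first step (-3.94), and Pcolce the widest second step (-2.53) among genes that stayed above the floor; the second steps of 16 genes are drawn at their lower bound, and Nanog and Pou5f1, circled, lie just above the 2-fold line of the second step.

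The thresholds cut through a continuous cloud. Just inside the first were Xylt2 (2.01-fold lower on day 1), Zfp936 (2.02-fold), Aspg (2.03-fold), Bbs2 (2.04-fold) and Psma8 (2.06-fold), and just outside were Zeb1 (1.98-fold), Chac1 (1.97-fold), Myl4 (1.96-fold), Slc20a2 (1.92-fold) and Ctnnal1 (1.91-fold). At the second step Itpr3 (2.01-fold lower on day 2 than on day 1), Apobec3 (2.02-fold), Pcsk1n (2.03-fold), Pcolce2 (2.03-fold) and Zfp296 (2.04-fold) were just inside. Bmerb1 (2.00-fold, under the threshold before rounding), Abca7 (1.99-fold), Morc1 (1.98-fold), St8sia5 (1.97-fold) and Hap1 (1.96-fold) were just outside. Differences between these inner and outer values are smaller than the measurement SD. The lowest day 0 signals were those of Xylt2 (234), Rad9b (245.5), Mypn (355), Fsd1 (357) and Apobec1 (373); with a floor of 54, a gene needed 216 on day 0 to show both falls, so 0 genes under 200 could meet them.

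The group of pluripotency factors, in which the elongation factor Tcea3 was placed, held 8 genes lower at each step. Sox2, the partner of Oct4 on many ES cell enhancers, read 11696, 2696 and 1213 on the 3 days, a 9.64-fold difference between day 0 and day 2. The orphan nuclear receptor Esrrb read 7222, 1557 and 752. Nr0b1 (Dax1), a nuclear receptor that lacks a DNA-binding domain of the usual kind, read 4857, 824 and 401. In these 3 genes the first step was wider than the second by more than 2 SDs of the probe set error, and so it was for Otx2 and Tcea3. For Otx2 this holds at the SD for its mean signal over the 3 days, not at that for its day 1 and day 2 signals. Otx2, a homeobox factor of the epiblast that moves toward the primed state, read 2559, 599 and 223.5. The elongation factor Tcea3 was the steepest of the group, at 1734, 157 and 62.9, which is 11-fold at the first step and 2.5-fold at the second.

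Utf1, a chromatin-bound factor used as an ES cell marker, read 8837, 2891 and 1099, and its steps were even within error (3.06-fold and 2.63-fold). Nr5a2, a nuclear receptor that can bind the Pou5f1 gene, read 1786, 853 and 344. The zinc finger gene Zfp296 read 2717, 1028 and 505. All 8 genes kept a day 2 signal above the floor, and Tcea3, at 62.9, was the only one under the receptor level of 72.3.

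Both other leading factors of the network came close to the rule. Nanog read 14628, 3441 and 1842 and Pou5f1 4049.7, 1493 and 829, with second steps of 1.87-fold and 1.80-fold. On a list of 50 pluripotency and ES cell genes, 45 had a day 0 signal of 200 or more; 10 of them were among the 92, 10 were lower at the first step only, 4 at the second only and 21 at neither. The list's median steps were -0.83 and -0.38. Klf2 (5785, 740.4 and 586), a Kruppel-like factor, was 7.81-fold lower on day 1 and 1.26-fold lower from day 1 to day 2, while Klf4 (7214, 7641 and 9675) and Klf5 (15067, 16812 and 14705) showed no 2-fold difference at either step.

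The FGF, Ras and ERK group also held 8 genes. Dusp6, the phosphatase that removes the activating phosphates of ERK, read 1716, 184 and 84.7, so that most of its 20.3-fold difference lay in the first day. Etv5 read 7268, 1662 and 725 and Etv4 read 883, 215 and 13.9; both are Ets factors of the PEA3 family and common readouts of FGF signalling. Etv4 was under the floor on day 2, at least 16.4-fold below day 0. Spred1, which blocks Raf activation by Ras, read 1435, 542 and 256. Il17rd (Sef), a membrane protein that dampens FGF signalling, read 1204, 391 and 156.

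The other 3 genes of the group handle Ras proteins or belong to them. Eras, a constitutively active Ras of ES cells, had the widest difference among the genes that stayed above the floor: it read 3012.5, 197 and 95.3, 31.6-fold lower on day 2 than on day 0. It has 1 probe set of its own, of a type that can also match other sequences, and its gene overlaps that of another member, Pcsk1n, in RefSeq. Rasgrp2, an exchange factor mainly for the Ras relative Rap1, read 1621, 227 and 18.2, at least 30.0-fold lower, with its day 2 signal under the floor. With a floor of 26.1 the bounds for Rasgrp2 and Etv4 were 62.1-fold and 33.8-fold, past Eras. Mras (M-Ras), a GTPase that works with Shoc2 on Raf, read 1893, 405 and 196.

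Not all inhibitors of the pathway followed this course. Spry2 read 2122.5, 2065 and 1289 and Spred2 1922, 1203 and 901, neither 2-fold lower at any step. Spry4, at 1023, 615.5 and 194, was 1.66-fold lower at the first step and 3.17-fold at the second. The ligand Fgf4 (3464, 296 and 238) was 11.7-fold lower on day 1 and only 1.24-fold lower from day 1 to day 2. Of 29 listed FGF, Ras and ERK genes with a day 0 signal of 200 or more, 7 were among the 92, 4 were lower at the first step only, 4 at the second only and 14 at neither, and 4 were at least 2-fold higher at the first step. The median steps of the list were -0.71 and -0.42.

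**Figure D2:**
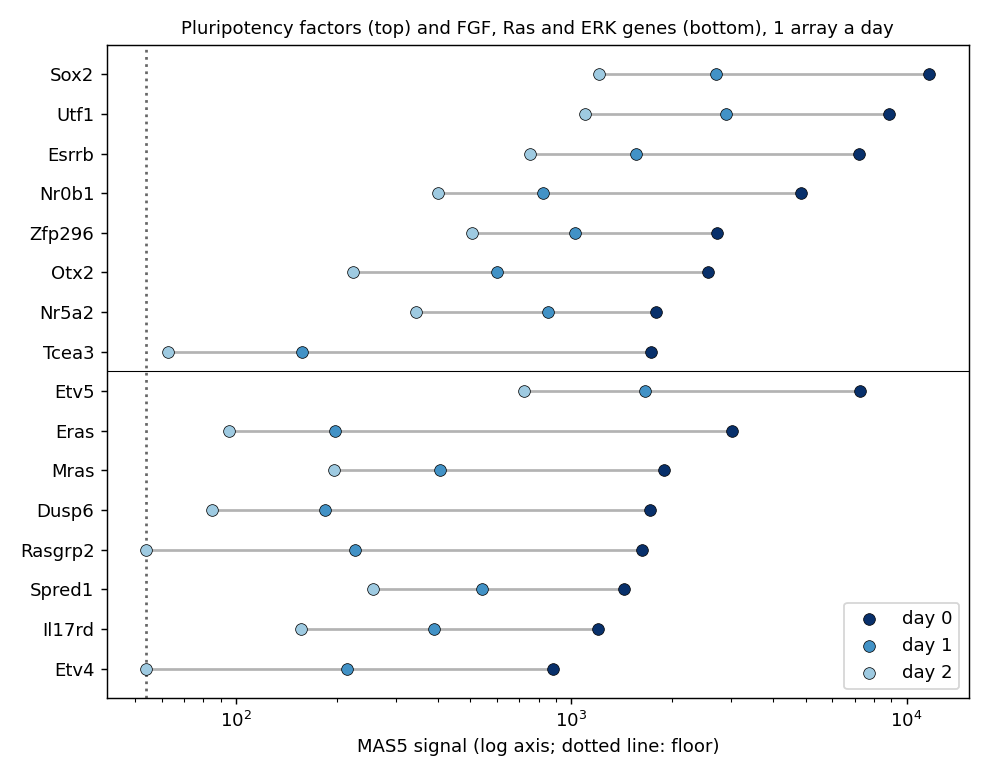
Signals on day 0, day 1 and day 2 (1 array each, log axis, values under the floor of 54 drawn at 54) of the 8 pluripotency factors and the 8 FGF, Ras and ERK genes lower at each step. The day 0 to day 1 distance is the longer one for Eras, Dusp6, Tcea3 and Nr0b1, and Rasgrp2 and Etv4 end at the floor.

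The other signalling genes, 11 in all, spanned ligands, receptors and effectors. Gdf3, a TGF-beta family ligand of ES cells, read 3505, 1669 and 342, and its second step (4.88-fold) was wider than its first (2.10-fold) by more than 2 SDs. Vegfc, the growth factor of lymphatic vessels, read 976, 241 and 83.4. Pcsk1n, which encodes the secreted peptide precursor proSAAS, read 710.4, 247 and 121. Erbb3, a neuregulin receptor with little kinase activity of its own, read 1600.1, 739 and 341. Gli2, a transcription factor at the end of the Hedgehog pathway, read 2448, 221 and 92.3, a 26.5-fold difference between day 0 and day 2.

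Within the cell, the calmodulin-like gene Calml4 read 1226, 215 and 36.4, at least 22.7-fold lower. The phosphatase gene Ppm1j read 812, 128 and 45.9 and the calcium-binding protein gene S100a6 read 1798, 364 and 171. Trib3 (a pseudokinase of the stress response), Itpr3 (a calcium release channel) and Ripk3 (a kinase of necroptosis) differed from day 0 to day 2 by 5.27-fold, 4.32-fold and 7.15-fold. Itpr3 was the gene with the narrowest difference of the 92, and its second step lay just inside the threshold.

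Over all 8548 genes, 1.08% were members. On the lists of related pathway genes below, the shares were 3.85%, 4.76% and 11.8%, which rest on 1, 1 and 2 genes. Of 26 listed Nodal, activin and BMP genes with a day 0 signal of 200 or more, Gdf3 was the 1 member, 5 were lower at the first step only and 1 at the second only. Of 21 listed Hedgehog, Wnt and Notch genes, Gli2 was the 1 member and 5 were lower at the first step only, among them Gli1, which read 456, 43.3 and 33.9 and so was at the floor by day 1. Gli3 (235.6, 149 and 229) was not 2-fold lower at either step. On the list of 43 hormones, peptides and secreted signals, 17 reached 200 on day 0, with 2 members (Gdf3 and Pcsk1n), 7 lower at the first step only and 3 at the second only.

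Genes for chromatin, DNA and other nuclear proteins made the largest group, with 13. Tet1, the dioxygenase that oxidises methylated cytosine in ES cells, read 6869.5, 2629 and 975, with even steps of 2.61-fold and 2.70-fold. Its relatives did not share this course: Tet2 read 1159, 1255 and 706, and Tet3 was near or under the floor on all 3 days (47.0, 65.0 and 38.4). Sap30, a subunit of the Sin3 histone deacetylase complex, read 7625, 2803 and 988, while its paralogue Sap30l read 2009.9, 2411 and 2555. Zfp57, a KRAB zinc finger protein that keeps methylation at imprinted loci, read 868, 275.5 and 128. The chromodomain gene Cdyl2 read 3018, 1454 and 324 and the gene Irf2bpl read 3364, 1272 and 301; both had a second step wider than the first by more than 2 SDs.

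Nupr1, a stress-induced nuclear protein, read 2197, 799.8 and 240.5, and Msantd3 read 414, 159.7 and 69.3. The other members were Zfp936, Zfp532, Txlng, Msc (the bHLH repressor musculin), Nup210 (a nuclear pore protein) and Chd9 (a chromodomain helicase), with day 0 to day 2 differences from 5.59-fold (Zfp936) to 7.61-fold (Chd9). Of 39 listed DNA methylation and chromatin genes with a day 0 signal of 200 or more, Tet1 was the 1 member, 3 were lower at the first step only and 6 at the second only, and the list's median steps were -0.35 and -0.40. The de novo methyltransferase Dnmt3b, by contrast, read 6542, 14835 and 11157.

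At the cell surface and in the matrix there were 12 genes. Pcolce, which enhances the processing of procollagen, read 5359, 1393 and 241, and its second step of 5.78-fold was the widest among genes that stayed above the floor. Its paralogue Pcolce2 read 1266, 438 and 215.5. Col18a1, a basement membrane collagen, read 2436, 638 and 176, and Bcam, a laminin receptor of the immunoglobulin superfamily, read 2194, 585.5 and 130.1. The junction protein gene Jam2 read 5498, 2183 and 709.6 and Pecam1, an adhesion molecule of ES cells and endothelium, read 1036, 431 and 199.9.

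Mymx, known for its part in the fusion of myoblasts, read 4977, 964 and 241. Fxyd6, which regulates the sodium pump, read 3336, 436 and 191 with the wider first step. The other readings were St8sia1 (ganglioside GD3 synthase) at 577, 234 and 62.2, Ceacam20 at 549, 202.5 and 54.4, Gpa33 at 508.5, 183 and 12.6 and Xylt2, a xylosyltransferase of proteoglycan synthesis, at 234, 117 and 40.3. Some of these genes are also expressed in fibroblasts. Beside them, the fibroblast marker Thy1 read 421, 75.4 and 50.5 and Loxl1 315, 88.5 and 93.9, while the collagen genes Col1a1 and Col3a1 were at the floor throughout, and the part of feeder cells was not tested. On the list of 48 adhesion and matrix genes, 34 reached 200 on day 0, with 3 members (Col18a1, Pcolce and Pecam1), 10 lower at the first step only, 3 at the second only and 6 at least 2-fold higher at the first.

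The 10 neuronal and cytoskeletal genes had medians of -1.33 and -1.30 for the 2 steps, with 2 of them at the floor on day 2. The tubulin gene Tubb2b read 4364, 1359.9 and 633. Uchl1, a deubiquitinating enzyme abundant in neurons and germ cells, read 1181, 412 and 93.9. Fbxo2, a ubiquitin ligase subunit that binds glycoproteins, read 1462, 596 and 194. The other members, Kank3, Ppp1r9a (neurabin), Dnajc6 (auxilin), Grik3 (a glutamate receptor subunit), Nexmif, Fsd1 and Mypn (myopalladin), had day 0 signals from 355 (Mypn) to 1045 (Kank3), and Nexmif and Fsd1 were at the floor on day 2. Of 25 listed cytoskeletal genes with a day 0 signal of 200 or more, 2 were members (Tubb2b and Calml4), 6 were lower at the first step only and 4 at the second only.

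A small group of 6 genes is known from germ cells, meiosis or cilia. Hsf2bp, which works with Brca2 in meiotic recombination, read 3182, 1211 and 469.7, and Lrrc34 read 1538, 399.5 and 125. Psma8, a proteasome subunit of the testis, read 704, 342 and 63.9 with a second step of 5.35-fold. Ak7 read 792, 364 and 148, Bbs2, a ciliary coat protein gene, 496, 243 and 107, and the checkpoint gene Rad9b 245.5, 113 and 19.5. The list of 39 germline and transposon silencing genes had none of these. On that list, 24 genes reached 200 on day 0, with 0 members, 7 lower at the first step only and 4 at the second only. Beside the share of 1.08% over all 8548 genes, 0 of 24 says little.

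Enzymes and mitochondrial proteins made up 10 genes. Chchd10, a protein of the mitochondrial intermembrane space, read 22905, 9141 and 4323, and Gsta4, a glutathione transferase that clears lipid peroxidation products, read 17456, 8302 and 2432. Neither came near the floor by day 2, and Gsta4 had the wider second step. The imprinted gene Mest read 2192, 878.5 and 294 and the secreted phospholipase gene Pla2g1b read 1361, 379.7 and 116. Genes for taurine synthesis (Csad, 869, 273 and 128) and asparagine breakdown (Aspg, 492, 242 and 110.3) were also here. So were 2 genes of NAD synthesis, Qprt (514.5, 244 and 116.5) and Nmnat2 (404, 133.5 and 52.4). Glod5 read 449.8, 192 and 73.0, and Rimkla, which makes the peptide N-acetylaspartylglutamate, read 375, 115 and 42.1.

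Over all 8548 genes, 1.08% were members, so a count of 0 on lists as short as the following says little about their genes. Listed glycolysis, serine, threonine and one-carbon genes gave 0 members of 35 with a day 0 signal of 200 or more, with 3 lower at the first step only (Ldhb, Pdk1 and Pfkp). The listed solute carriers gave 0 of 21, with 6 lower at the first step only. Of 14 listed glucocorticoid targets, 0 were members, 4 were lower at the first step only and 3 at the second only. These counts do not test for an effect of dex. None of the 10 listed endoderm genes with a day 0 signal of 200 or more was lower at either step, and all 10 were at least 2-fold higher on day 1 than on day 0. Both fibroblast markers that reached 200 were lower at the first step only.

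A further 3 genes act on nucleic acids or in antiviral defence. Apobec3, a cytidine deaminase that restricts retroviruses, read 2350.3, 544 and 269, with the wider first step. Apobec1, the deaminase that edits apolipoprotein B RNA, read 373, 165 and 12, and Parp12 read 616, 214 and 90.7.

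The last 11 genes are little characterised or were placed in no other group. AU018091 (6417, 2807 and 1038) and Lrrc2 (2501, 357 and 151) kept a day 2 signal above the floor. The Lrrc2 probe set is of a type that can also match other sequences. Another Lrrc2 probe set read 276.5, 7.3 and 29.7, under the floor from day 1. Platr10, a long noncoding RNA named for its link to pluripotency, read 1157, 276 and 70.1. 1190005I06Rik read 813.5, 112 and 14.0 and 2500002B13Rik 742, 266 and 60. The others, 2900026A02Rik, Dusp27, Plekhb1, Ccdc160, Fam13c and Lrmp, were between 408 and 697 on day 0, and Dusp27, Fam13c and Lrmp ended under the floor. By RefSeq biotype, 90 of the 92 genes are protein-coding and 2 are long noncoding RNAs.

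**Figure D3:**
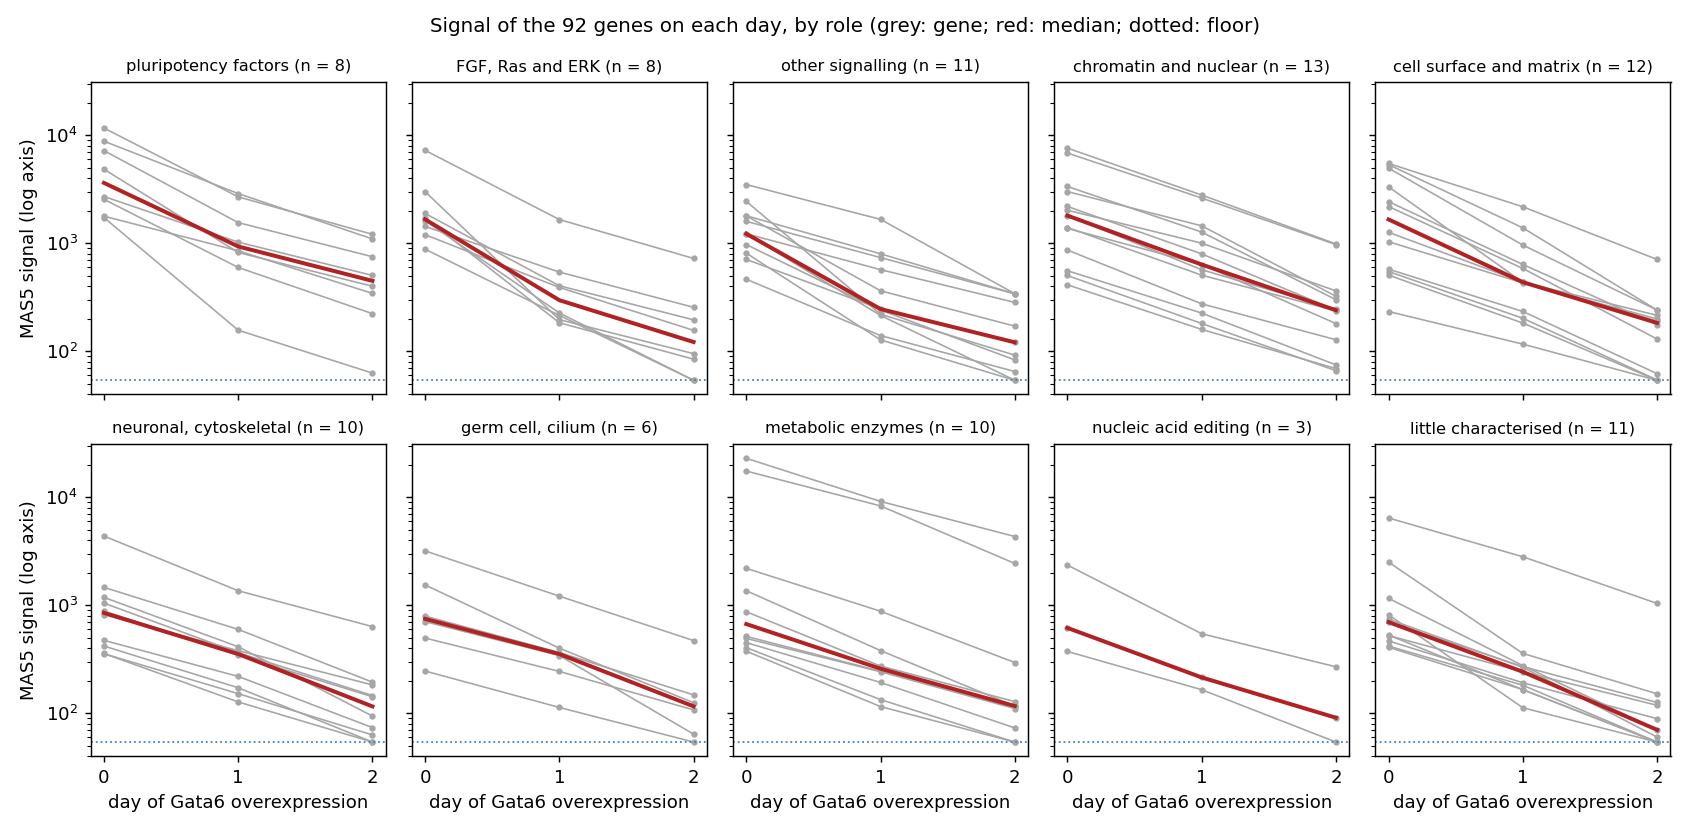
Signal on each day (log axis, values under the floor drawn at 54) for the 92 genes, in a panel for each of 10 role groups; grey lines are genes, red lines the group median and the dotted line the floor. Group medians of the pluripotency and the FGF, Ras and ERK genes drop more in the first day (-2.11 and -2.18 on the log2 scale) than in the second (-1.23 and -1.16), while the chromatin group is even (-1.40 and -1.47).

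The share of the difference that fell in each day varied. The first step was the wider in 56 genes and the second in 36, but for 71 of the 92 the steps differed by less than 2 SDs of the probe set error (an SD of 0.71 at signals under 200, 0.49 from 200 to 1000, 0.30 from 1000 to 5000 and 0.21 above, on the log2 scale). The first was wider by more than this in 16 genes and the second in 5. Each gene's SD was that for its mean signal over the 3 days, which day 0 dominates, while the second step rests on dimmer signals. At the SD for the day 2 signal, the first minus the second step would be within 2 SDs for some of these genes. At 0.49, for day 2 signals from 200 to 1000, these were Otx2 (-0.67), Irf2bpl (0.68) and Etv5 (-0.93). At 0.71, for day 2 signals under 200, they were Psma8 (1.38), S100a6 (-1.21) and Mras (-1.18). The counts of 16 and 5 may therefore be too high. Of the 16, 5 were pluripotency factors (Sox2, Esrrb, Nr0b1, Otx2 and Tcea3), 4 were FGF, Ras and ERK genes (Etv5, Eras, Mras and Dusp6) and 3 were other signalling genes (Gli2, S100a6 and Ppm1j). The rest were Fxyd6, Apobec3, Lrrc2 and 1190005I06Rik. The 5 with the wider second step were Gdf3, Cdyl2, Irf2bpl, Psma8 and Gsta4. These counts take the lower bound of the second step for the 16 genes that ended under the floor: Ppm1j and 1190005I06Rik of the first set and 14 of the 71 even genes. With a floor of 26.1, the first step was the wider in 52 genes and the second in 40, and by more than 2 SDs in 15 and 9. 1190005I06Rik then became even, and Etv4, Gpa33, Nexmif and Apobec1 had the wider second step.

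Other probe sets of the same genes gave a second reading on the same arrays. Of the 92 genes, 50 had 1 probe set and 42 had 79 others, of which 43, from 29 genes, had a day 0 signal of 200 or more. Of these 43, 22 were at least 2-fold lower at both steps, 16 at the first step only, 3 at the second only and 2 at neither, and 39 were lower in sign at both. Over other probe sets of all genes with a day 0 signal of 200 or more, 46 of 5809 (0.792%) were lower at both steps, a count that includes those 22. By step, 38 of the 43 were at least 2-fold lower at the first and 25 at the second. A probe set less than 2-fold above the floor on day 1 could not be 2-fold lower at the second step. The count of 25 may therefore be too low.

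Readings were close for several genes. Etv5 gave -2.33 and -2.29 at the first step and -1.20 and -1.24 at the second on its other probe sets, beside -2.13 and -1.20. A second Col18a1 probe set read 3000.3, 685.7 and 122, and the 2 further Tet1 probe sets with a day 0 signal of 200 or more were lower by more than 2-fold at both steps. For Jam2, 3 of its 4 others were lower at both steps, and the fourth was -0.84 at the second.

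Readings diverged for others. Spred1 had 4 other probe sets with a day 0 signal of 200 or more, and none was 2-fold lower at the second step, with log2 ratios of -0.95, -0.60, -0.22 and 0.33. Those with -0.22 and 0.33 read 64.2 and 53.5 on day 1, too near the floor for a 2-fold second fall. A Rasgrp2 probe set read 742, 67.4 and 71.0, also too near the floor on day 1, while another read 1109, 173 and 39.4. An Esrrb probe set read 2115, 540.0 and 468, a second step of -0.21, and the other, at 2641, 577 and 240.5, was lower at both. Mras (-0.29) and Vegfc (-0.22) each had a probe set with a shallow second step, and the Txlng probe set read 622, 453 and 380.0. The Vegfc probe set read 65.3 on day 1, so the floor limited its second step. Both other Nr5a2 probe sets with a day 0 signal of 200 or more were short of 2-fold at the first step (-0.88 and -0.99).

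**Figure D4:**
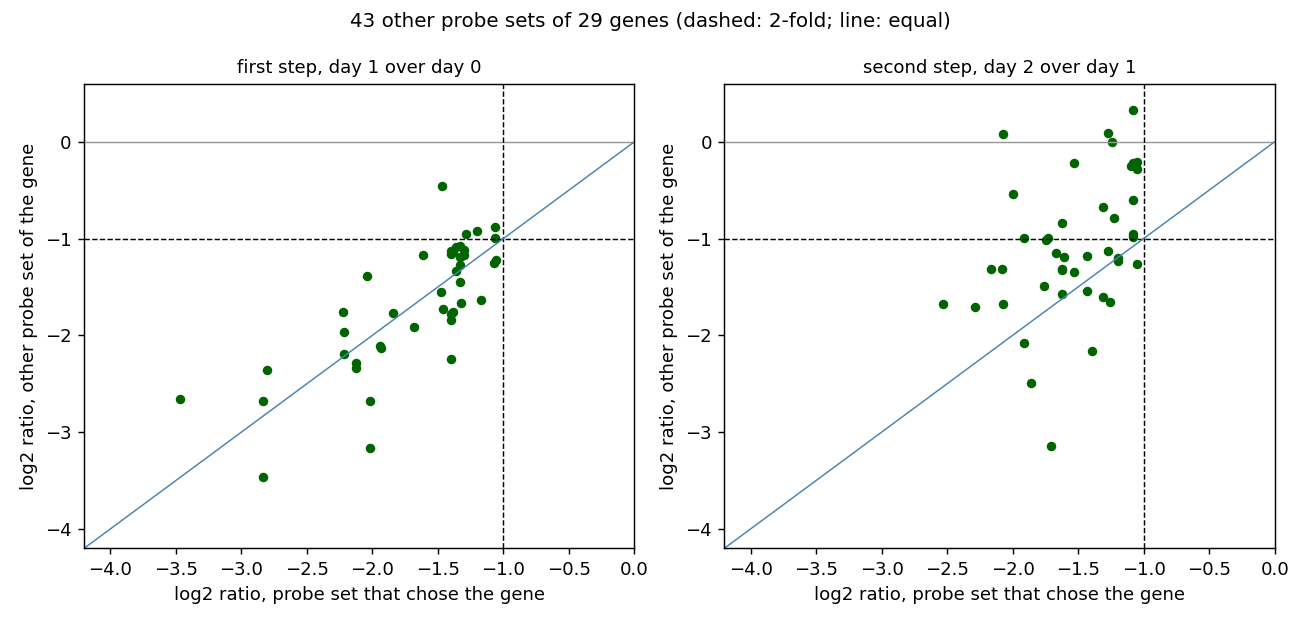
Log2 ratio of the probe set that chose each gene (x axis) against that of each other probe set of the gene (y axis), for the first step (left) and the second (right); dashed lines mark 2-fold and the solid line equality, over 43 other probe sets of 29 genes. At the first step 38 points lie at or under the 2-fold line, at the second 25.

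Some of the 92 genes are neighbours in the genome. In the RefSeq gene order of assembly GRCm38.p6, 4 pairs had no protein-coding gene between them. These were Dusp27 and Gpa33 on chromosome 1, Apobec1 and Gdf3 on chromosome 6, Sap30 and 2500002B13Rik on chromosome 8, and Pcsk1n and Eras on chromosome X. Such pairs were not counted among other genes, so whether the 92 lie closer together than others was not tested. Pcsk1n and Eras overlap, and these files do not show which gene a shared stretch of RNA comes from. Glod5 lies near Eras, with 2 protein-coding genes between. Next to Gdf3 on the other side are Dppa3, Nanog and Slc2a3. Nanog was 4.25-fold lower on day 1 and a further 1.87-fold lower on day 2, short of the rule at the second step. Dppa3 read 125, 104 and 183.5, and the glucose transporter gene Slc2a3 read 26019, 27683 and 27493, neither 2-fold lower at any step.

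Promoters were examined as a feature the rule did not use. RefSeq promoters of build GRCm38.p6, each 300 bases from 250 before to 50 after a gene's start, were found for 77 of the 92 genes, 100 promoters in all since 18 genes had several. Their median ratio of observed to expected CpG was 0.56, against 0.79 for 9009 promoters of genes with a day 0 signal of 200 or more and 0.38 for all 32851 promoters. A ratio of 0.6 or more, typical of CpG islands, was found in 45% of the members' promoters. It was found in 57.2% of those of genes lower on day 1 only, 55.2% for day 2 only, 76.0% for genes with a day 0 signal of 200 or more and 35.8% of all. The median GC content was 59.3% in the members and 61.3% in the genes with a day 0 signal of 200 or more.

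Motifs were searched on both strands, and the shares are descriptions. CCCCACCC, bound by Kruppel-like factors, was in 25% of the members' promoters (25 of 100, from 23 genes), against 18.1% for genes lower on day 1 only, 14.7% for day 2 only, 12.3% for genes with a day 0 signal of 200 or more and 9.99% of all promoters. The octamer ATGCAAAT, bound by Oct4 and other POU factors, was in 3 of 100 (3%), close to the 2.90% (17 of 587) for genes lower on day 1 only. It was in 0.79% for day 2 only, 1.04% for genes with a day 0 signal of 200 or more and 1.74% of all. TTGTNATGC, the core of the joint site of Sox2 and Oct4, which overlaps the octamer and the Sox motif, was in 1 (1%). Its shares in the same 4 sets, in that order, were 1.36%, 0.40%, 0.37% and 0.73%. The Sox motif CATTGTT was in 1 (1%), against 1.70%, 2.38%, 1.73% and 3.78%, and the Esrrb motif TCAAGGTCA in 0, against 0.34%, 0.40%, 0.28% and 0.42%. The Ets motif CCGGAAGT was in 0; it was also scarce in genes lower on day 1 only (1.19%) and day 2 only (3.17%), against 9.31% for genes with a day 0 signal of 200 or more and 3.89% of all. With 100 promoters, a share of 1% is a single promoter, and these windows hold no distal enhancers.

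For the remaining motifs the members' share comes first, then those of the same 4 sets in that order. TTCCNGGAA of STAT factors gave 1%, against 0.85%, 0.79%, 1.10% and 1.15%. AGATAAG of GATA factors gave 2%, against 2.04%, 1.59%, 1.60% and 3.04%. CACGTG, the E-box of Myc, gave 8%, against 9.71%, 8.73%, 10.9% and 7.15%. CCAAT of NF-Y gave 27%, against 33.7%, 36.5%, 38.3% and 37.4%, and TATAAA of the TATA-binding protein 10%, against 6.81%, 11.1%, 6.46% and 13.6%. The 2 GATA motif matches were in promoters of Nr5a2 and Zfp57.

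**Figure D5:**
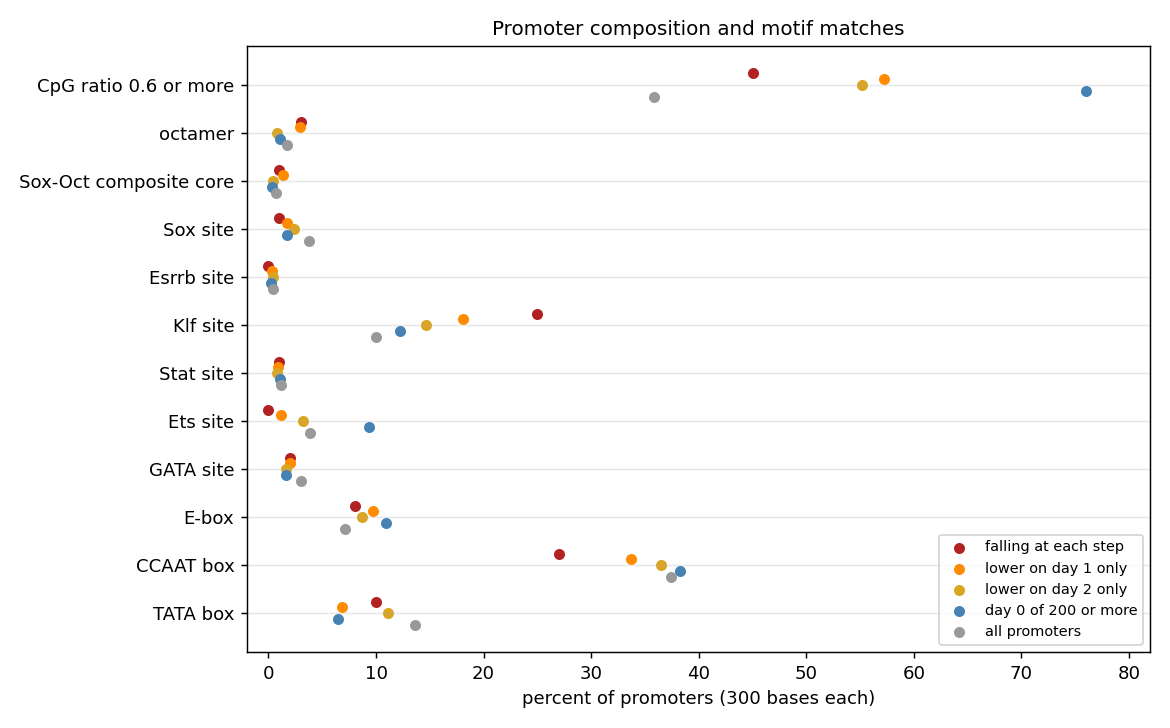
Percent of promoters (x axis) with a CpG ratio of 0.6 or more and with each of 11 motifs (rows), for the 92 genes, genes lower on day 1 only, genes lower on day 2 only, genes with a day 0 signal of 200 or more, and all promoters. The members lie lowest of the 4 expressed sets for the CpG ratio (45%) and highest for the Klf motif (25%).

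Printed here are the promoters whose matches bear on the pluripotency network, chosen after their values were seen: the 3 with the octamer, the 1 with the Sox and Oct core, and the promoters with the Klf motif of Eras, Gli2, Otx2 and Esrrb, the 4 genes with both that motif and the wider first step. Sequences are RefSeq's (GRCm38.p6), 5′ to 3′ along the gene, with matches on either strand of the octamer, the Sox and Oct core and the Klf motif in capitals; other motifs are left in lower case. In Zfp296 (chr7:19577037-19577336, plus strand) the octamer begins 111 bases before the start and overlapping Klf motifs lie 198 and 193 before it. In Chchd10 (chr10:75932880-75933179, plus strand) octamers begin 83 and 70 bases before the start. Itpr3 (chr17:27057054-27057353, plus strand) has its octamer 27 bases before the start and a Klf motif 61 before, and Spred1 (chr2:117120821-117121120, plus strand) its Sox and Oct core 226 before.
Zfp296: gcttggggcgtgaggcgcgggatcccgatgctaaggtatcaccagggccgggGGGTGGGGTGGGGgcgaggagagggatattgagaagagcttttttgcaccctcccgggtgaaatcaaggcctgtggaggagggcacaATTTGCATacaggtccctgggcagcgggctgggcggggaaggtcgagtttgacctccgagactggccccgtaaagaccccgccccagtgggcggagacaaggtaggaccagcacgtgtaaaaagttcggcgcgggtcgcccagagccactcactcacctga
Chchd10: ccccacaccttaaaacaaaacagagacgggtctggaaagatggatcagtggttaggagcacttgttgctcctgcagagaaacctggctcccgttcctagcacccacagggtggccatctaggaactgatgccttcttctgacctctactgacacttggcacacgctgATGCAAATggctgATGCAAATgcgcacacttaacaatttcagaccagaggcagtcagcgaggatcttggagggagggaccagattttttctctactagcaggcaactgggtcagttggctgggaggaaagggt
Itpr3: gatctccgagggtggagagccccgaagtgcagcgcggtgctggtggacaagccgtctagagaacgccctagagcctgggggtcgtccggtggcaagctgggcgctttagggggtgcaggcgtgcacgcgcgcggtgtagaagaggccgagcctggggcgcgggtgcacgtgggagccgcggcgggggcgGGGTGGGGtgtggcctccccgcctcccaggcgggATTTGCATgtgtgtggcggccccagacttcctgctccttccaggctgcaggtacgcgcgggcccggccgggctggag
Spred1: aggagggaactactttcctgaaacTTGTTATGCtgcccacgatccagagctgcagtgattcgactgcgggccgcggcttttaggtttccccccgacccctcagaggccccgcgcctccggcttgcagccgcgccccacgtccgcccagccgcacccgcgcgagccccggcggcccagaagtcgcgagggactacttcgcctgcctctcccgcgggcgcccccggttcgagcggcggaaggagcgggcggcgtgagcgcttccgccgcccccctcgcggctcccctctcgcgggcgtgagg

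The Klf motif is shown for these 4 genes. In Eras (chrX:7928558-7928857, minus strand) overlapping matches begin 17 and 11 bases before the start, in Gli2 (chr1:119053570-119053869, minus strand) a match begins 194 before, and in 1 of the Otx2 promoters (chr14:48662685-48662984, minus strand) there are 4, at 156, 150, 89 and 71 before. Esrrb has 2 such promoters, the first (chr12:86360867-86361166, plus strand) with a match 39 bases before the start and the second (chr12:86421394-86421693, plus strand) with a match 105 before.
Eras: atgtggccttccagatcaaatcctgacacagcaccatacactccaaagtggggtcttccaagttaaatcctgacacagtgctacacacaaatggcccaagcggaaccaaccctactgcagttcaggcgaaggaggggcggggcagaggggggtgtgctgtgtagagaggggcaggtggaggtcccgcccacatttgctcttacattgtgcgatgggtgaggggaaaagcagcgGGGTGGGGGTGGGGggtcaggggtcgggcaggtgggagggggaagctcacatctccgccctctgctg
Gli2: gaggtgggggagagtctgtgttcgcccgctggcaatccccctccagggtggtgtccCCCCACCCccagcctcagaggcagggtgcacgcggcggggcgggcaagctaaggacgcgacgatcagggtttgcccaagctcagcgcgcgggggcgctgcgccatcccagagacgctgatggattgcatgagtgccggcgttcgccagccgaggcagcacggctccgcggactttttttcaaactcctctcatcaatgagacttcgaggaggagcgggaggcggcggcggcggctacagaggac
Otx2: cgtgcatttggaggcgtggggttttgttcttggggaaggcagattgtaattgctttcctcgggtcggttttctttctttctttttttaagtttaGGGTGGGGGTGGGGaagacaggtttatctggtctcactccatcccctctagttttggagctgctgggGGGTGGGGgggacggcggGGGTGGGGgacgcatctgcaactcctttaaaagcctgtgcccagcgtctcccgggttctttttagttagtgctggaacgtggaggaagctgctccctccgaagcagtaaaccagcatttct
Esrrb first: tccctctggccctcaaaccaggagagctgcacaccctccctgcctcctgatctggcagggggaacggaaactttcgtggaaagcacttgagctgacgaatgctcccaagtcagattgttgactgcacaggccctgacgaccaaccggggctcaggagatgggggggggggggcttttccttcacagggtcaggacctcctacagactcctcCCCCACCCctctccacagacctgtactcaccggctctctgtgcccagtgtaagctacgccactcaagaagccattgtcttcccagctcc
Esrrb second: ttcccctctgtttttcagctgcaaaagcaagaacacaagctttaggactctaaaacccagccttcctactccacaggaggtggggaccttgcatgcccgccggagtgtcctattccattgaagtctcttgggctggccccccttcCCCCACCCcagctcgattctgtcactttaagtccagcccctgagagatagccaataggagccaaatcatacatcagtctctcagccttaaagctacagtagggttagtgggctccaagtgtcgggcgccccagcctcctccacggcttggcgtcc

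For the genes of these promoters, day 2 was lower than day 0 by 5.38-fold for Zfp296, 5.30-fold for Chchd10, 4.32-fold for Itpr3 and 5.61-fold for Spred1. These 4 are at the shallow end of the 92, below the median of 7.58-fold. For Eras, Gli2, Otx2 and Esrrb the differences were 31.6-fold, 26.5-fold, 11.4-fold and 9.60-fold. Those genes were picked in part for their wider first step, which favours wide differences, so folds cannot be compared between the motifs. Zfp296 and Itpr3 also carry the Klf motif. A match is not evidence of binding, which these arrays do not measure.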

How the data were processed

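Total RNA from the 3 samples was labelled with biotin and hybridised to 1 Affymetrix array each. The deposited values are linear signal intensity values per probe set, made by the authors with MAS5 per the submitters' processing notes, with no version named. Of 45101 probe sets, 64 were controls, and 34944 were annotated to 1 gene by GEO's platform table, 34740 of them matched to RefSeq by gene identifier. Each of 18193 genes was read from whichever of its probe sets had the highest log2 signal on average, after values under 54 were set to 54. No rescaling was applied. Folds are ratios of such signals, and log2 steps are their logs. The number of arrays limits the precision, the days were not tested against each other, and no replicate spread could be had. The measurement SD comes from 14769 pairs of probe sets that share a gene and lay above the floor: it is the root mean square of how their log2 steps differed, divided by the square root of 2. Alternatives changed the floor, the scaling, the probe set, the fold or the day 0 minimum. The genes, 14 lists and 11 motifs were chosen with earlier results of these data known, and the role groups after the 92 genes were known. The rule for named genes was the members on a list, the 15 with the widest day 0 to day 2 ratio, the 10 with the highest day 0 signal, the 5 genes on each side of each threshold, and the pluripotency list; the other members and all other genes named were chosen after their values were seen. The rule was run on simulated data with bright genes, wider falls than those of most of the 92 and little noise. That run does not cover genes near the thresholds. Python 3.11.15, pandas 2.3.3, numpy 2.4.6, statsmodels 0.14.6 (loess) and matplotlib 3.10.9 were used.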

Additional observations from a re-analysis of the deposited data

How the results depend on the processing

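The count of 92 genes depended on the floor and the fold. Raising the floor to the 60th percentile (146.5) left 50 genes, all among the 92. The count was 53 with a pseudocount of 54 in place of the floor (50 of them among the 92), 332 at 1.5-fold and 11 at 3-fold. At 1.5-fold and 3-fold, 1300 and 262 genes were lower on day 1 than on day 0, and 1077 and 88 on day 2 than on day 1. The other settings gave 71 to 109 genes: 109 with the floor at the 25th percentile (26.1), 102 with quantile normalization, 89 with loess, 77 without probe sets whose suffix marks shared sequence (_s_at, _x_at, _a_at), 71 with means over probe sets, and 92 and 86 with a day 0 minimum of 100 and 400. The minimum of 100 could not change the count, since with a floor of 54 a gene needed 216 on day 0 to show both falls. The median steps of the 92 ranged from -1.50 to -1.34 and from -1.36 to -1.03. Under all 7 changes of floor, scaling or probe set, 18 genes met the rule: AU018091, Ak7, Col18a1, Etv5, Fbxo2, Fxyd6, Gdf3, Jam2, Lrrc34, Mest, Msc, Mymx, Sap30, Sox2, Tet1, Tubb2b, Uchl1 and Zfp532. Eras, Esrrb, Mras and Tcea3 met it under 4 of the 7, and Xylt2 under 2. Of 788 values of 58 named genes, 702 moved by less than the measurement SD, 86 by more, and 0 changed sign where the step was at least 2-fold. Some second steps became 0, such as those of Ppm1j and Fsd1 with the floor of 146.5 and of Lrrc2 without shared-sequence probe sets. Some of the 702 could not move, as with means over probe sets for genes with 1 probe set. No paired analysis was possible because each day has 1 array and the labels give no replicate numbers.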

Other observations

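Probe sets outside the gene results were read by the same rule. Of 10092 probe sets annotated to no gene or to several, 1393 had a day 0 signal of 200 or more, and 8 of these were at least 2-fold lower at both steps. No gene is named for them here: 5 had no annotated gene and 3 had several. A probe set without an annotated gene read 1262, 193.5 and 81.7 on days 0, 1 and 2, which is 15.4-fold lower on day 2 than on day 0.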
